A study of Mastomys natalensis with 3 samples.

Results

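Detoxification enzymes were followed on 3 Affymetrix rat expression arrays hybridised with gastric RNA of the African rodent Mastomys natalensis. Members were the probe sets with exactly 1 gene symbol whose symbol belongs to the cytochrome P450 (Cyp), glutathione transferase (Gsta, Gstm, Gstp, Gstt, Mgst), UDP-glucuronosyltransferase (Ugt), sulfotransferase (Sult), aldehyde dehydrogenase (Aldh), aldo-keto reductase (Akr), glutathione peroxidase (Gpx), peroxiredoxin (Prdx) or superoxide dismutase (Sod) genes, or is Cat, Nqo1, Ephx1 or Ephx2. This gave 198 probe sets for 116 genes, out of 7006 probe sets with 1 symbol (4736 genes) and 8740 non-control probe sets in all. The first array held enriched gastric enterochromaffin-like (ECL) cells, which store histamine, from animals given loxtidine, a blocker of the acid-driving histamine receptor, for 8 weeks. The second held such cells after 16 weeks of loxtidine. The remaining array held such cells from animals with a spontaneous gastric ECL cell carcinoid, and the labels state no loxtidine for it. For the animals, strain, age, sex and the number pooled are not given in the sources used here. The source field reads ECL cells for the 8-week array and gastric mucosa for the others. Each group had 1 array, so no difference below has a replicate check, an SD or a p-value, and every statement describes these 3 arrays.

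Detoxification runs in steps. P450 enzymes oxidise foreign compounds, and also fatty acids, sterols and steroids. Epoxide hydrolases, Nqo1, aldehyde dehydrogenases and aldo-keto reductases deal with reactive epoxides, quinones and carbonyls, and glutathione transferases, glucuronosyltransferases and sulfotransferases attach a group that makes the product easier to excrete. Superoxide dismutases turn superoxide into hydrogen peroxide, which catalase, glutathione peroxidases and peroxiredoxins remove. The stomach lining meets ingested compounds directly, while many of the P450, Ugt2b and Sult2a genes on a rat array are best known from liver.

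Values are quantile-normalized intensities on a linear scale unless called deposited, and they are given in the order 8 weeks, 16 weeks, carcinoid. A floor of 12.4, the pooled median of normalized non-control values, marks where a value is used as a measurement. When the lower of 2 values is under the floor, the fold is a lower bound, written "at least". Rat probes met Mastomys RNA, so a probe set is compared only with itself across arrays. In these bulk samples fewer cells of a type and less RNA per cell cannot be told apart.

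Of the 198 member probe sets, 106, 108 and 91 reached the floor on the respective arrays (53.5%, 54.5% and 46%). Over all 8740 non-control probe sets 4371, 4379 and 4371 did, since the floor is their pooled median. On all 3 arrays 59 of the 198 members were at or above it, beside 2662 of the 8740 non-control probe sets. On none were 51 members (25.8%), compared with 29.2% of all non-control probe sets. At gene level, 96 of 116 genes had a probe set at the floor on at least 1 array. The 20 others included Cyp1a1 and Cyp3a2, well-known inducible and liver P450 enzymes, the microsomal epoxide hydrolase Ephx1, and the transferase Gstt1. Of 34 control probe sets with no expected target, 8, 9 and 7 also reached the floor, so values just above it are weak evidence of a transcript. A second limit is cross-hybridisation, because 117 of the 198 have names ending in _s_at, _f_at, _r_at, _i_at or _g_at, kinds that can be shared by related genes or that break design rules. The identity of single Cyp2, Cyp3a, Gsta, Gstm, Ugt2b and Sult2a members is therefore uncertain.

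Facts of the arrays move with the groups and stand beside every comparison with the 8-week array. The ratio of 3′ to 5′ control signal was 8.95, 1.43 and 2.31 for GAPDH and 16.1, 6.71 and 11.7 for beta-actin. Of 6 leukocyte markers, 5, 3 and 0 reached the floor, with a summed level of 128, 84.5 and 27.8. Cd74, Cd4 and Itgam reached it at 8 weeks alone (35.3, 24.9 and 20.6), Lyz2 and Ptprc also at 16 weeks (18.5 and 13), and Cd8a at 16 weeks alone (41.1). The 9 smooth muscle and fibroblast markers summed to 1374, 535 and 496 (5, 7 and 7 at the floor), and the fibroblast gene decorin (Dcn) made up most of the 8-week sum, with 1090.5, 317 and 262. The smooth muscle genes Acta2 (4.55, 21.1 and 32.2), Cnn1 (7.30, 26.2 and 32.4) and Myh11 (3.16, 16.6 and 19.3) ran the other way, under the floor at 8 weeks. Of 4 mucous cell markers, all at the floor on every array, the mucin Muc5ac read 15.8, 168 and 213, which is 10.6-fold and 13.4-fold above 8 weeks, in the same order as Gstp1, Gpx2 and Mgst3 below. Gkn1 (28.6, 26.2 and 28.7) and Tff1 (1124, 831 and 1213) differed by less than 1.5-fold, and Tff2 was lowest at 16 weeks (44.8, 19.3 and 65.6). Among 9 ECL and neuroendocrine markers, 6, 6 and 5 reached the floor and the sums were 282.5, 248 and 160.0. The defining enzyme Hdc was under the floor on all arrays, whereas the monoamine transporter Slc18a2 read 21.7, 42.3 and 23.2. Of 5 such markers measured on the 8-week and carcinoid arrays, 3 were at least 2-fold lower in the carcinoid and 0 higher (median log2 difference -1.08), namely Cckbr (74.3, 56.5 and 35.3), Chgb (37.6, 35.4 and 17.7) and Syp (57.1, 33.6 and 26.7). Of 5 parietal cell markers 4, 3 and 3 reached the floor, and of 3 chief cell markers 2, 2 and 3. The chief cell gene Pgc (4695, 4589 and 3724) and the parietal cell gene Atp4a (966, 1449 and 903) were bright on every array. Parietal Atp4b (240, 143 and 117) and Ckb (508, 234 and 347) were highest at 8 weeks, unlike Atp4a. Chief cell Cblif read 452, 512 and 386. The parietal marker Kcnq1 was under the floor on all arrays. Parietal Aqp4 (13.3, 0.592 and 3.86) and chief cell Lipf (3.16, 4.42 and 21.2) reached it on 1 array each. Transcripts of other mucosal cells were thus detected, though not for every marker. The arrays also carry different lot labels, and the effects of lot and group cannot be told apart. The part that these differences play in the results was not tested.

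At 16 weeks, 10 of the 77 members at the floor on both of these arrays exceeded their 8-week value 2-fold or more and 7 lay as far below it. Over the 3164 probe sets of any gene measured this way the shares were 10.8% higher and 9.89% lower, and the members' shares of 13.0% and 9.09% lie near them. In the intensities as deposited the members' counts were 20 higher and 2 lower (27.4% and 2.74%, with 19.7% and 4% over all probe sets). On the carcinoid array, 6 of 70 were at least 2-fold higher than at 8 weeks (8.57%, with 11.8% over all probe sets) and 11 at least 2-fold lower (15.7%, with 11.3% over all). As deposited these counts were 12 and 2 (18.5% and 3.08%, with 25.4% and 3.63% over all). With scaling by the median they were 7 and 6 (10% and 8.57%, with 14.4% and 8.46% over all). Between carcinoid and 16 weeks, 4 of 70 were at least 2-fold higher (5.71%, with 6.98% over all) and 7 at least 2-fold lower (10%, with 6.28% over all). Median log2 differences of the members in these comparisons, in that order, were -0.00, -0.20 and -0.17, beside -0.01, -0.04 and 0.01 over all probe sets. As deposited the median over all probe sets was 0.39, 0.45 and 0.10, so a deposited fold should be read against that shift. Bounds of at least 2-fold add, in the same order, 11 higher and 14 lower of the 198 members, then 9 and 19, then 6 and 15. Over all 8740 probe sets these bounds add 433 and 421, then 455 and 440, then 278 and 322.

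**Figure D1:**
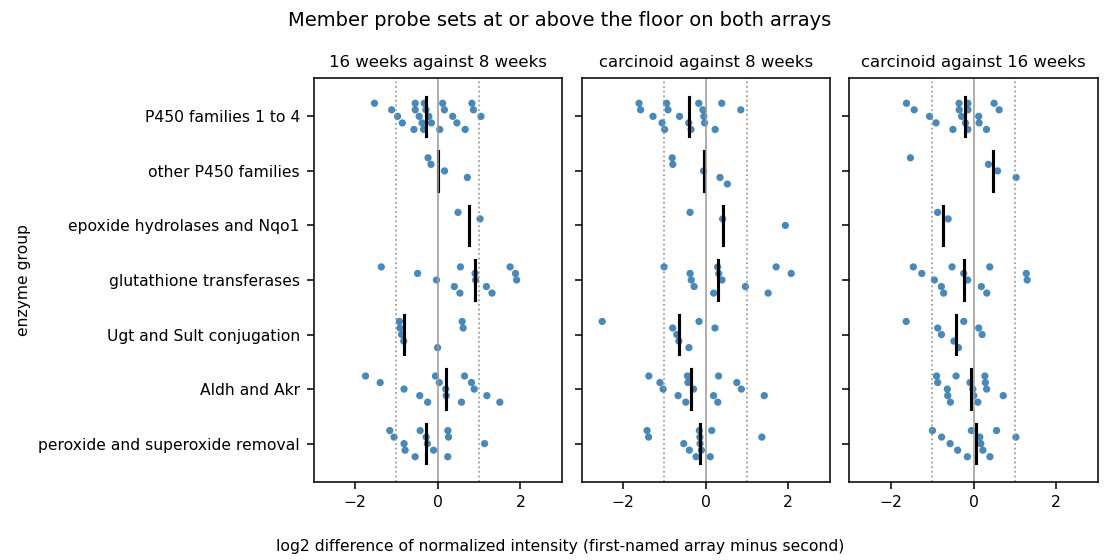
Each point is the log2 difference of a member probe set at or above the floor on both arrays, by enzyme group, for the 3 comparisons; black bars are group medians and dotted lines mark 2-fold. Glutathione transferases at 16 against 8 weeks have their median at 0.90, and no group lies wholly beyond either dotted line.

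With single arrays, error could be gauged only from how far probe sets of 1 gene disagreed. Expressed as the error of a single probe set, this came to a log2 spread of 0.79, 0.82 and 0.62 over all genes in the 3 comparisons. Among member genes it was 0.86, 1.01 and 0.46. A single 2-fold difference, which is 1 on that scale, is little larger than the spread over all genes. Differences within a pair are larger than this spread, and over all genes 140 of 410, 156 of 395 and 115 of 457 pairs lay more than 1 apart. Among member genes with a pair of probe sets measured on both arrays, the pair had the same sign in 5 of 9 genes at 16 against 8 weeks. It did in 3 of 8 for carcinoid against 8 weeks and in 9 of 11 for carcinoid against 16 weeks. Over all genes the pairs with the same sign were 217 of 410, 202 of 395 and 237 of 457, so probe sets of 1 gene often differed in direction. The member genes below are therefore given with every probe set that reached the floor on any array. Cell type markers and other pathway genes are given by their brightest probe set only.

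Glutathione transferases join glutathione to electrophiles. Of their 13 probe sets measured at both 8 and 16 weeks, 5 read 2-fold or more above 8 weeks at 16 weeks and 1 as far below. These are shares of 38.5% and 7.69%, with 10.8% and 9.89% over all probe sets. The median log2 difference was 0.90 (1.29 as deposited). Of 12 measured on the carcinoid and 8-week arrays, 3 were at least 2-fold higher and 1 lower, with a median of 0.30. Those shares are 25% and 8.33%, with 11.8% and 11.3% over all probe sets. Between carcinoid and 16 weeks, the counts were 2 and 2 of 13 (15.4% each, with 6.98% and 6.28% over all) and the median was -0.24. The 5 higher probe sets at 16 weeks came from 4 genes: Gstp1, Gstm1, Gstm2 with a pair of probe sets, and Mgst3.

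Gstp1, the pi-class enzyme found in many epithelia and tumours, was low at 8 weeks on both of its probe sets. The brighter read 27.1, 100.1 and 114, and the other 8.40, 48.0 and 118. The first was thus 3.69-fold higher at 16 weeks and 4.2-fold higher on the carcinoid array than at 8 weeks, and for the second the bounds were at least 3.88-fold and 9.52-fold. With the floor at the 75th percentile, 30.0, the brighter still had bounds of at least 3.34-fold and 3.8-fold. Between carcinoid and 16 weeks the probe sets differed, at 1.14-fold and 2.46-fold higher on the carcinoid array.

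Mgst3, a membrane-bound transferase and peroxidase, read 150.0, 373 and 489.7 on its only probe set, far above the floor on every array. It was 2.49-fold higher at 16 weeks and 3.26-fold higher on the carcinoid array than at 8 weeks (3.88-fold and 6.02-fold as deposited), and 1.31-fold higher on the carcinoid than on the 16-week array. Its relatives read differently. Mgst1 read 36.5, 69.0 and 41.8, with the high value at 16 weeks only, and Mgst2 read 116, 113 and 141, with no fold above 1.25. Mgst2, like Gstm5 and the dim Gpx5, Gpx6 and Gpx7 below, was named after its values were seen.

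The mu-class genes gave mixed readings, and their sequences are close enough for signal to be shared. Gstm2 read 39.7, 134 and 113 on its brighter probe set, 3.37-fold higher at 16 weeks and 2.85-fold higher on the carcinoid array than at 8 weeks. Its dimmer probe set read 16.1, 36.5 and 13.3, which is 2.26-fold higher at 16 weeks but 1.21-fold lower on the carcinoid array. Gstm1 had 3 probe sets, reading 187, 134 and 93.5 on the brightest, 83.9, 122 and 110.5 on the next and 43.4, 163 and 84.6 on the last. At 16 against 8 weeks these were 1.4-fold lower, 1.45-fold higher and 3.76-fold higher. Gstm7 went the other way, with 82.8, 32.2 and 8.30, which is 2.57-fold below 8 weeks at 16 weeks, and at least 6.7-fold below it on the carcinoid array. It kept that direction as deposited, at 1.74-fold and 6.47-fold lower.

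The alpha and theta classes lay closer to the floor. Gsta1 read 17.7, 33.2 and 13.9 on its brightest probe set, 2.38-fold lower on the carcinoid than on the 16-week array, but its other probe sets read 42.8, 5.25 and 3.57 and 6.69, 29.8 and 9.64. Gsta3 read 21.1, 30.9 and 5.67 on its brightest probe set, and 24.3, 0.867 and 1.42 on another. Gsta4 read 33.6, 44.4 and 25.9, within 1.72-fold in each comparison, while a second probe set from the same sequence read 2.16, 5.56 and 27.5. Gstt2 read 4.29, 15.7 and 38.1 on its brighter probe set, with a bound of at least 3.08-fold for the carcinoid over the 8-week array, and was under the floor everywhere on the other. Gstm5, a mu-class gene, read 14.9, 1.99 and 18.6, close to the floor where it reached it.

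**Figure D2:**
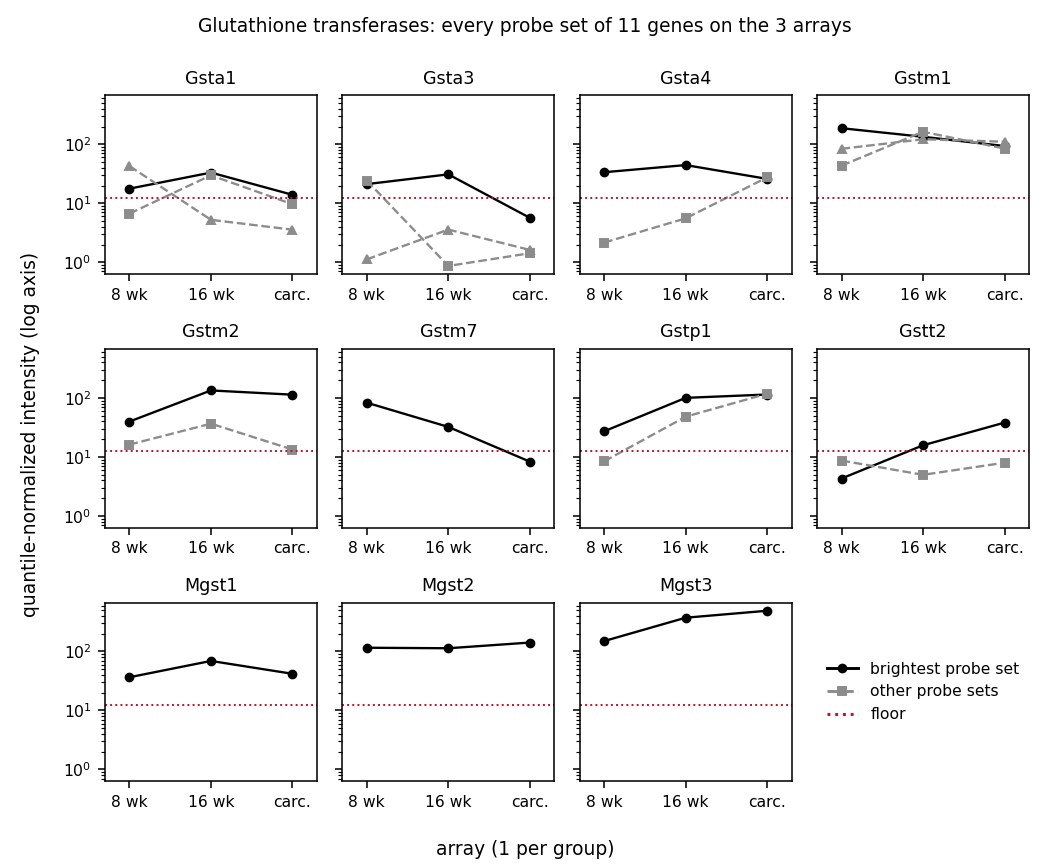
Quantile-normalized intensity (log axis) of the glutathione transferase genes, other than Gstm5, with a member at the floor on at least 1 array. Each line joins the 3 arrays for 1 probe set, which is no time course. Black is the brightest probe set of the gene, and the dotted line is the floor. Both Gstp1 probe sets read low at 8 weeks (27.1 and 8.40) and near each other on the carcinoid array (114 and 118), while the Gstm1 and Gsta1 probe sets cross.

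Superoxide and peroxide removal showed no common direction. Of 13 probe sets measured at 8 and 16 weeks, 1 was at least 2-fold higher and 2 lower, with a median of -0.28 that was 0.23 as deposited. For carcinoid against 8 weeks 1 of 12 was higher and 2 lower (median -0.14, 0.56 as deposited). For carcinoid against 16 weeks 1 was higher and 0 lower of 12 (median 0.05). Over all probe sets the shares higher and lower were 10.8% and 9.89%, 11.8% and 11.3%, and 6.98% and 6.28%.

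Gpx2, the glutathione peroxidase typical of the gastrointestinal epithelium, read 42.5, 93.4 and 109. It was 2.2-fold higher at 16 weeks and 2.57-fold higher on the carcinoid array than at 8 weeks (3.02-fold and 4.05-fold as deposited), so its 8-week value stands below both others. Gpx3, the secreted plasma enzyme, had its low value on the carcinoid array, with 124, 92.8 and 46.6. That is 2.67-fold below 8 weeks and 1.99-fold below 16 weeks, or 1.6-fold and 1.85-fold as deposited, and its second probe set was under the floor everywhere. Gpx1, the abundant cytosolic form, read 227, 187 and 211 on its brightest probe set, with no fold above 1.21, and 100.5, 58.3 and 85.7 on another. Gpx4, which protects membrane lipids, read 86.4, 104 and 93.5, with none above 1.2. On the brightest Gpx1 probe set the directions of the small differences from 8 weeks turned in the intensities as deposited. Gpx5, Gpx6 and Gpx7 were under the floor on all arrays.

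Sod1, the cytosolic copper-zinc dismutase, read 349.7, 239.8 and 266 on its brightest probe set, 266, 152 and 102 on another and 70.6, 83.6 and 48.9 on the last. Carcinoid against 8 weeks was 1.31-fold, 2.6-fold and 1.44-fold lower on these, but as deposited the first and last were 1.48-fold and 1.08-fold higher, so no direction is given for this gene. Sod2, the mitochondrial manganese enzyme, had its low value at 16 weeks, with 35.7, 16.0 and 32.5. It was 2.23-fold lower at 16 weeks than at 8 weeks and 2.03-fold higher on the carcinoid than on the 16-week array (1.67-fold and 2.18-fold as deposited). The 16-week value lies near the floor. Sod3, the extracellular form, read 7.04, 13.1 and 3.57.

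Catalase, Cat, stayed close to the floor at 14.2, 16.8 and 12.9 on its brightest probe set. Its other probe sets reached the floor at 16 weeks only, at 14.8 and 15.2. Among the peroxiredoxins, thioredoxin-dependent peroxidases, Prdx1 read 59.7, 50.2 and 66.1 and Prdx2 read 153, 143 and 138, with folds of at most 1.32 and 1.11. Prdx6 differed more, with 42.5, 20.5 and 6.61 on its brightest probe set. It was 2.08-fold below 8 weeks at 16 weeks, with a bound of at least 3.44-fold below it on the carcinoid array (1.53-fold and 4.53-fold as deposited), but its other probe sets were under the floor on every array. Prdx3, the mitochondrial form, read 22.1, 10.4 and 3.86 on one probe set and 4.18, 13.0 and 5.85 on the other, which comes from the same sequence.

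**Figure D3:**
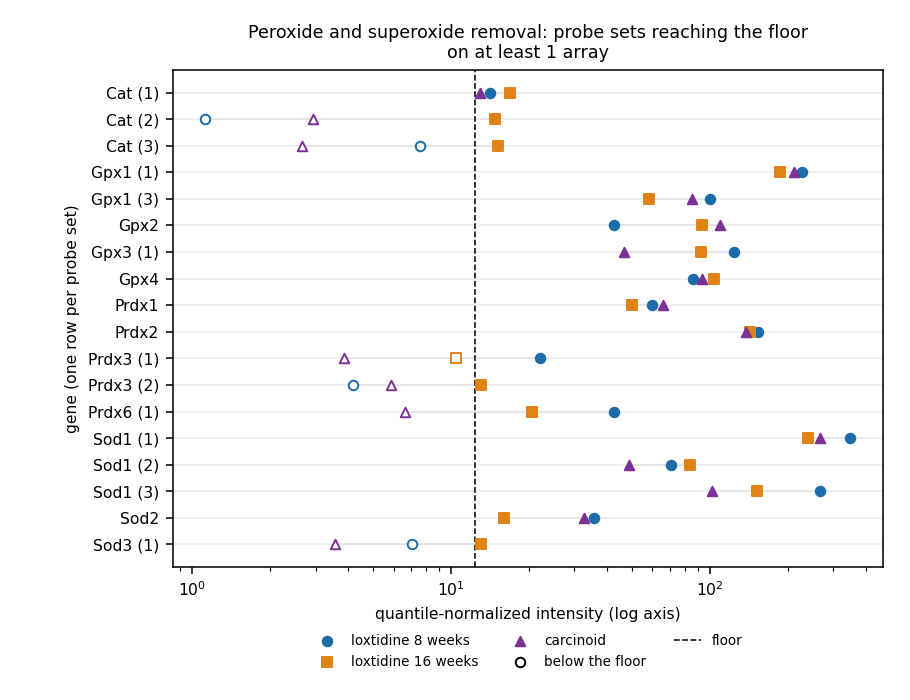
Quantile-normalized intensity (log axis) of probe sets for peroxide and superoxide removal that reached the floor (dashed) on at least 1 array, with 1 row per probe set, numbers marking several probe sets of a gene and open symbols marking values under the floor. Gpx2 is low at 8 weeks (42.5) and Gpx3 low on the carcinoid array (46.6), while the 3 arrays lie close together for Gpx4, Prdx2 and Gpx1.

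Carbonyl-metabolising enzymes differed in both directions. Of 15 Aldh and Akr probe sets measured at 8 and 16 weeks, 2 were at least 2-fold higher and 2 lower. For carcinoid against 8 weeks 1 was higher and 3 lower of 14, and for carcinoid against 16 weeks none of 14 was 2-fold apart. Shares over all probe sets, higher and lower, were 10.8% and 9.89%, 11.8% and 11.3%, and 6.98% and 6.28%. Akr1a1, which reduces many aldehydes to alcohols, read 262, 598 and 322 and was thus 2.28-fold higher at 16 weeks than at 8 weeks and 1.86-fold lower on the carcinoid than on the 16-week array. Akr1b1, aldose reductase, had the same order at 59.7, 105 and 68.2, with folds of 1.76 and 1.54. Aldh2, the mitochondrial enzyme that oxidises acetaldehyde, read 19.0, 53.8 and 50.7. It was 2.84-fold higher at 16 weeks and 2.67-fold higher on the carcinoid array than at 8 weeks, and the other arrays lay within 1.06-fold of each other. Aldh3a1 (29.2, 45.8 and 49.2) and Aldh6a1 (23.2, 42.9 and 42.3) also had their low value at 8 weeks, with folds of at most 1.69 and 1.84.

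Aldh1a1, which makes retinoic acid from retinal, was highest at 8 weeks at 85.5, with 32.6 and 39.8 on the other arrays. It was 2.62-fold lower at 16 weeks and 2.15-fold lower on the carcinoid array, or 1.76-fold and 1.36-fold as deposited. Akr1c3, a steroid-reducing enzyme, read 39.8, 38.4 and 3.77 on its brightest probe set, at least 3.22-fold lower on the carcinoid array than at 8 weeks. Its other probe set read 42.0, 12.5 and 20.6, so the array with the low value differed between them. Akr1d1, a bile acid and steroid reductase, read 38.9, 22.1 and 15.01, which is 2.59-fold lower on the carcinoid array than at 8 weeks. Aldh1l1, an enzyme of folate metabolism, was under the floor at 16 weeks alone, with 36.1, 11.2 and 25.9.

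P450 families 1 to 4, which handle foreign compounds and fatty acids, had 65 probe sets for 37 genes, and 14 of these probe sets were at the floor on all arrays. At 16 against 8 weeks 1 of 23 measured probe sets was at least 2-fold higher and 2 lower. On the carcinoid array 0 of 17 were at least 2-fold higher than at 8 weeks and 4 were lower. Against 16 weeks 0 of 17 were higher and 3 lower. Over all probe sets the shares higher and lower were 10.8% and 9.89%, 11.8% and 11.3%, and 6.98% and 6.28%. Bounds of at least 2-fold add 4 higher and 4 lower of the 65 probe sets, then 4 and 8, then 1 and 6. Over all 8740 probe sets they add 433 and 421, then 455 and 440, then 278 and 322. Medians for these 3 comparisons were -0.28, -0.41 and -0.20, but the first was 0.09 and the second 0.05 as deposited.

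Cyp2a1, a steroid hydroxylase of rat liver, read 193, 89.4 and 63.3, so it was highest at 8 weeks. It was 2.16-fold lower at 16 weeks and 3.05-fold lower on the carcinoid array, which shrank to 1.37-fold and 1.75-fold as deposited. Cyp2d4 read 235, 255 and 122 on its brighter probe set, 2.09-fold lower on the carcinoid than on the 16-week array. Against 8 weeks the carcinoid value was 1.92-fold lower but 1.01-fold higher as deposited. Its other probe set read 15.5, 11.7 and 6.93. Cyp2b15 (45.8, 47.4 and 15.4) and Cyp2a2 (33.6, 37.6 and 13.9) were low on the carcinoid array, 3.08-fold and 2.7-fold below 16 weeks and 2.97-fold and 2.41-fold below 8 weeks. Both kept that direction as deposited, and their carcinoid values lay near the floor.

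Cyp2d2 and Cyp2d3, which are close relatives, were under the floor at 8 weeks alone. Cyp2d3 read 9.44, 40.8 and 32.0, with bounds of at least 3.3-fold at 16 weeks and 2.58-fold in the carcinoid, and Cyp2d2 read 9.71, 31.3 and 25.7. Cyp2c6v1 had its low value at 8 weeks too, with 2.16, 21.0 and 29.6. Cyp2a3 read 37.0, 11.6 and 2.65 on its brighter probe set and 22.9, 15.7 and 7.36 on the other, both highest at 8 weeks. Cyp2c13 read 33.5, 5.76 and 16.1 on one and 7.17, 25.9 and 10.5 on the other, in opposite order. The male-specific liver enzyme Cyp2c11 read 9.85, 33.4 and 7.96 on its brightest probe set, high at 16 weeks alone, but 13.99 and 8.05 at 8 weeks, 2.95 and 6.15 at 16 weeks and 18.3 and 17.9 in the carcinoid on its others. Cyp4f17 was high on the carcinoid array alone with 4.55, 4.86 and 22.8. Cyp4a3, a fatty acid hydroxylase, read 18.2, 33.2 and 17.7. Cyp2g1, an olfactory P450, was under the floor on the carcinoid array alone, with 28.5, 39.3 and 5.67. Cyp2e1, which oxidises ethanol and small solvents, gave 52.8, 68.0 and 62.0 on its brightest probe set, 39.7, 26.7 and 1.97 on the next and 27.7, 15.3 and 13.9 on the last. The first was 1.17-fold higher on the carcinoid array than at 8 weeks, the second at least 3.21-fold lower and the last 1.99-fold lower. Cyp3a23-3a1, of the drug-metabolising 3a group, read 85.1, 29.5 and 45.3 on its brightest probe set and 25.1, 51.9 and 45.3 on another, so 16 against 8 weeks was 2.88-fold lower on the former and 2.07-fold higher on the latter. Its remaining probe sets read 58.8, 30.0 and 2.92 and 5.79, 2.86 and 25.6. The readings of these genes do not give a common order of the arrays.

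**Figure D4:**
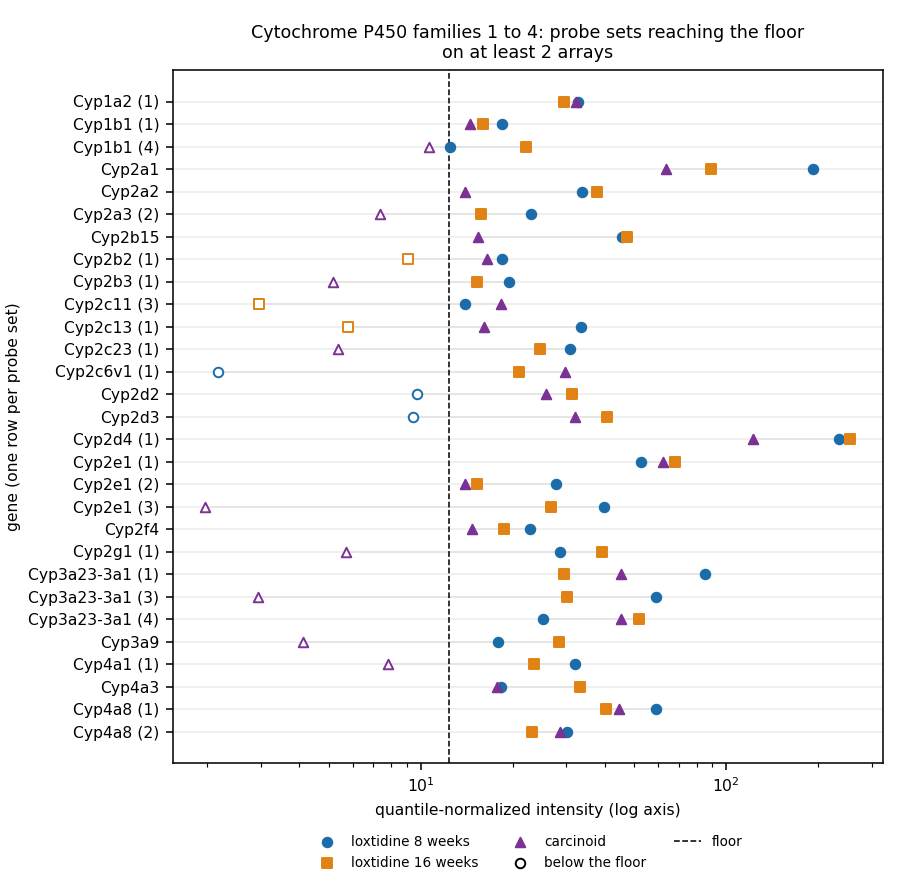
Quantile-normalized intensity (log axis) of probe sets of P450 families 1 to 4 that reached the floor (dashed) on at least 2 arrays, with 1 row per probe set, numbers marking several probe sets of a gene and open symbols marking values under the floor. Cyp2b15 (15.4) and Cyp2a2 (13.9) are low on the carcinoid array, and the Cyp2e1 and Cyp3a23-3a1 rows differ in which array is low.

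The remaining P450 genes act on sterols, steroids and vitamins, and 3 of their 19 probe sets were at the floor on all arrays. Cyp19a1, aromatase, which makes oestrogens and is known from parietal cells, read 26.3, 43.3 and 15.01. It was 2.88-fold lower on the carcinoid than on the 16-week array. Cyp51, lanosterol demethylase of cholesterol synthesis, read 10.8, 12.4 and 25.2 on its brightest probe set, so the carcinoid value was 2.04-fold above that of the 16-week array. Another of its probe sets read 12.7, 14.2 and 18.3, in the same order with 1.28-fold for that comparison, and the others that reached the floor read 6.29, 4.96 and 16.7 and 12.7, 5.56 and 6.18. Cyp24a1, which breaks down vitamin D, read 51.8, 44.1 and 65.9, with folds up to 1.5. Cyp27b1, which activates vitamin D, was under the floor at 16 weeks alone, with 37.3, 4.32 and 21.5. Cyp7a1, the rate-limiting enzyme of bile acid synthesis in liver, reached the floor at 16 weeks only, at 27.6.

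Glucuronosyltransferases and sulfotransferases had 32 probe sets, of which 4 were at the floor on all arrays. No probe set was 2-fold apart among 7 measured at both 8 and 16 weeks. For carcinoid against 8 weeks 1 of 7 was lower, and for carcinoid against 16 weeks 1 of 8. Over all probe sets the shares higher and lower were 10.8% and 9.89%, 11.8% and 11.3%, and 6.98% and 6.28%. Bounds of at least 2-fold add 2 higher and 5 lower of the 32, then 1 and 5, then 2 and 2. Over all 8740 probe sets they add 433 and 421, then 455 and 440, then 278 and 322. In both carcinoid comparisons the lower measured probe set was Ugt2b, whose family conjugates steroids and bile acids, with 107, 58.4 and 18.9. It was 5.66-fold below 8 weeks and 3.09-fold below 16 weeks (3.63-fold and 2.98-fold as deposited), and with the floor at 30.0 at least 3.56-fold and at least 1.95-fold below. Its probe set is of the _i_at kind and its other probe sets read at most 14.2, so the identity of the signal is uncertain. Ugt2b1 read 25.6, 13.6 and 8.05.

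Sult1b1, a thyroid hormone and phenol sulfotransferase of the gut and liver, dropped out at 16 weeks alone, with 64.5, 9.86 and 41.2. The 16-week value was at least 5.21-fold below the 8-week value and at least 3.33-fold below the carcinoid value, with 4.62-fold and 4.48-fold as deposited. Sult1a1, the main phenol sulfotransferase, read 24.9, 37.6 and 29.2 on its brighter probe set, with folds up to 1.51, and 2.71, 17.7 and 12.7 on the other. Sult2a2, a hydroxysteroid sulfotransferase, read 59.1, 31.2 and 10.2 on its brightest probe set, at least 4.78-fold lower on the carcinoid array than at 8 weeks, but 27.7, 8.68 and 1.52 and 6.69, 16.5 and 14 on the others. Sult2a1 also had probe sets in opposite order, with 6.82, 7.43 and 45.0 on the brightest and 30.7, 7.33 and 4.92 on another, while a further one read 7.56, 28.2 and 15.5.

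Nqo1, a quinone reductase and a widely used target gene of the Nrf2 stress response, read 32.8, 66.7 and 43.6. It was 2.04-fold higher at 16 weeks than at 8 weeks (2.76-fold as deposited) and 1.53-fold lower on the carcinoid than on the 16-week array, and its second probe set was under the floor everywhere. Ephx2, the soluble epoxide hydrolase that acts on fatty acid epoxides, read 74.8, 105 and 57.6 on its brightest probe set. On another it read 12.9, 8.11 and 49.1, 3.81-fold higher on the carcinoid array than at 8 weeks, and a probe set from the same sequence read 8.05, 9.18 and 23.3. The last read 15.7, 5.56 and 1.07, so the Ephx2 probe sets disagree on the carcinoid array.

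Other genes that serve these enzymes were taken from a list of 72 symbols, of which 46 had a probe set with 1 symbol. Each was read from its brightest probe set only, so agreement between probe sets was not checked for them. At 16 against 8 weeks 2 of 16 measured genes were at least 2-fold higher and 1 lower (10.8% and 9.89% over all probe sets). For carcinoid against 8 weeks 3 of 15 were higher and 0 lower (11.8% and 11.3% over all). For carcinoid against 16 weeks 2 of 17 were higher and 0 lower (6.98% and 6.28% over all). Cyb5a, cytochrome b5, which passes electrons to P450 enzymes, read 24.5, 82.8 and 57.9, 3.38-fold higher at 16 weeks and 2.36-fold higher on the carcinoid array than at 8 weeks. Por, the P450 reductase, read 114, 92.0 and 104. In glutathione synthesis, the regulatory subunit Gclm read 40.8, 77.5 and 96.8, 2.37-fold higher on the carcinoid array than at 8 weeks, and the synthase Gss 99.7, 122 and 166. The catalytic subunit Gclc and the glutathione reductase Gsr were under the floor on all arrays. Ugdh, which makes the donor for glucuronidation, read 46.0, 94.0 and 66.0, 2.04-fold higher at 16 weeks than at 8 weeks. The mitochondrial thioredoxin reductase Txnrd2 was 2-fold lower at 16 weeks, with 56.6, 28.3 and 47.0. Adh5, the formaldehyde-clearing alcohol dehydrogenase, was 2.24-fold and 2.75-fold higher on the carcinoid array than at 8 and 16 weeks, with 23.2, 18.9 and 52.2. The exporter Abcc3 read 1.25, 17.1 and 41.0, 2.4-fold higher on the carcinoid than on the 16-week array. Nfe2l2, which encodes Nrf2, read 37.3, 23.8 and 41.9, and a link between it and the Nqo1 values was not tested.

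Hepatocyte markers were examined because many members are known from liver. Of 13 on the array, 8 reached the floor on each array and their summed level was 541, 360.5 and 418, of which transthyretin (Ttr) gave 304, 166 and 222. Albumin (Alb) read 9.58, 14.9 and 13.1, near the floor throughout. Single markers ran in different orders. Apob (65.3, 26.7 and 41.8) and Hp (51.0, 5.1 and 30.4) were highest at 8 weeks, as was Ttr. Ahsg (20.3, 36.4 and 1.07) and Fga (1.51, 26.7 and 9.89) were highest at 16 weeks, and Apoa1 (4.42, 25.3 and 30.3) in the carcinoid. The markers that reached the floor thus differed between arrays.

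Members apart from both other arrays by at least 2-fold were few among the 59 measured on all 3. On the 8-week array 3 were above both (5.08%, with 4.13% of all 2662 such probe sets), namely Akr1c3, Aldh1a1 and Cyp2a1. Below both were 5 (8.47%, with 7.78% of all), namely Aldh2, Gpx2, Gstm2, Gstp1 and Mgst3. The 16-week array had Gstm2 above and Sod2 below (1.69% each, with 1.28% and 2.82% of all). Gstm2 stood apart through its brighter probe set at 8 weeks and its dimmer one at 16 weeks. Akr1c3 stood apart at 8 weeks through its dimmer probe set only, while its brightest read 39.8, 38.4 and 3.77. No member was above both others on the carcinoid array (1.69% of all were), and below them were 3 (5.08%, with 2.97% of all), namely Cyp2a2, Cyp2b15 and Ugt2b. The 8-week array, on which the most members stood apart, was also the one with the highest 3′ to 5′ control ratios and the highest summed leukocyte markers. Dcn was highest there, whereas the smooth muscle genes Acta2, Cnn1 and Myh11 were under the floor. Muc5ac was lowest there, whereas the mucous markers Gkn1, Tff1 and Tff2 were lowest at 16 weeks. The part of these differences in the members' values was not tested.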

How the data were processed

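RNA was measured on 3 Affymetrix rat U34 arrays, 1 per group, and grouped by the labels' descriptions. The authors deposited a linear-scale intensity for each probe set on each array; the algorithm and scaling are not given in the sources used here. The deposited medians were 10.2, 13.1 and 13.9. Gene names come from GEO's platform annotation, which can be old: 7006 non-control probe sets had 1 symbol, 308 several and 1426 none. The arrays were quantile-normalized over all probe sets, controls included. Values at or above the 50th percentile of the normalized non-control values (12.4) counted as measured. Lower ones were set to that floor to give a bound, and a 2-fold difference was the count limit. With 1 array per group no test was possible, and precision is limited by the number of arrays. Named genes were 38 well-known enzymes, per comparison in each direction the 8 member genes with the largest measured difference and the 4 with the largest bound, plus the 6 brightest members. These were 68 genes, of which Cyp2b1, Gsta2, Prdx4, Prdx5 and Ugt1a1 have no member probe set. Marker and pathway lists, like the members, were chosen with earlier results of these data known. Alternatives were the intensities as deposited, median scaling, floors at the 25th and 75th percentiles, no floor, only probe sets without shared-kind suffixes, and 1 probe set per gene. The calculations were tested on simulated data. Tools were Python 3.11.15, pandas 2.3.3, numpy 2.4.6, scipy 1.17.1 and matplotlib 3.10.9.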

Additional observations from a re-analysis of the deposited data

How the results depend on the processing

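Counts of members at least 2-fold higher and lower moved with the settings more than the direction of single genes did. The main pairs of counts were 10 and 7 (16 over 8 weeks), 6 and 11 (carcinoid over 8 weeks) and 4 and 7 (carcinoid over 16 weeks). As deposited the first pair became 20 and 2 and the second 12 and 2, and the members' median log2 differences for the first and second comparison became 0.40 and 0.28. With median scaling the carcinoid count below 8 weeks became 6. With the floor at the 25th percentile (4.19) the 3 pairs were 26 and 25, 21 and 27, and 16 and 26, with 18.2% and 17.2%, 18.3% and 18.4%, and 14.2% and 13.9% over all probe sets (members 19.4% and 18.7%, 17.4% and 22.3%, and 12.7% and 20.6%). With the floor at the 75th percentile (30.0) they were 6 and 3, 3 and 5, and 1 and 1 (over all 7.93% and 6.87%, 9.53% and 8.24%, and 2.71% and 2.96%; members 15.8% and 7.89%, 8.82% and 14.7%, and 2.7% each). With no floor, on log2(value + 12.4), they were 17 and 19, 14 and 27, and 11 and 17 (over all 8.04% and 8.16%, 9.02% and 8.31%, and 5.24% and 5.26%; members 8.59% and 9.6%, 7.07% and 13.6%, and 5.56% and 8.59%). Without probe sets of shared kinds, which leaves fewer members, they were 4 and 2, 3 and 4, and 1 and 2 (over all 10.8% and 9.43%, 11.4% and 10.6%, and 6.92% and 6.26%; members 12.9% and 6.45%, 11.1% and 14.8%, and 3.57% and 7.14%). With 1 probe set per gene every count stayed within 1.5 times. Of 124 differences of named genes, 24 changed sign as deposited and 7 with median scaling, none of them at least 2-fold apart in the main setting. Of 36 differences at least 2-fold apart, 22 remained so as deposited, 30 with median scaling, 36 with the lower floor and 21 with no floor. With the higher floor 113 differences could be given, of which 13 moved, and 20 of 35 remained at least 2-fold apart. No paired analysis was possible because each group has 1 array, and for the same reason no replicate could be left out. Values near the floor limit the P450, Ugt and Sult readings most.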

Other observations

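Probe sets annotated with several symbols were left out of the members, since no single gene can be named from them. There were 35 with at least 1 symbol of the enzyme families, and for 34 of these every symbol belonged to them. Of the 34, 12 reached the floor at 8 weeks, 19 at 16 weeks and 12 on the carcinoid array. For 12 probe sets every symbol was a Ugt1a gene, the glucuronosyltransferases made from 1 locus with alternative first exons, and 3, 9 and 5 of them reached the floor. Measured on every array were 3 of these, which read 31.2, 38.9 and 28.5, 144, 134 and 129, and 65.6, 47.5 and 68.3 at 8 weeks, 16 weeks and in the carcinoid. None of the 3 was 2-fold apart in any comparison. Another 6 reached the floor at 16 weeks but not at 8 weeks, with bounds between 1.11-fold and 2.84-fold higher, and 4 of them were under it again on the carcinoid array. A Ugt1a probe set with 5.67, 35.2 and 4.45 was at least 2.84-fold higher at 16 weeks than at 8 weeks, and one with 8.26, 29.5 and 23.1 at least 2.39-fold higher. The brightest probe set annotated with more than 1 Cyp2b symbol read 88.7, 64.8 and 13.3, so its carcinoid value was 6.66-fold below 8 weeks and 4.87-fold below 16 weeks. The other such probe sets were dimmer. They read 14.8, 20.6 and 5.93, then 12.8, 6.82 and 4.19, and then 7.17, 8.11 and 9.55, the last under the floor on every array.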
